A study of Mus musculus with 6 samples.

Results

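Cycling fibro-adipogenic progenitors (FAPs) were selected on their measured counts, as single cells with at least 1 UMI (unique molecular identifier, 1 captured RNA molecule) of *Pdgfra* and of *Dcn*, none of *Ptprc*, and UMIs of at least 2 of the 6 cell division genes *Mki67*, *Top2a*, *Cdk1*, *Birc5*, *Cenpf* and *Ccna2*. *Pdgfra*, a platelet-derived growth factor receptor, and *Dcn*, the matrix proteoglycan decorin, mark FAPs, whereas *Ptprc* encodes the leukocyte antigen CD45. Of 11207 cells, 3204 passed the *Pdgfra*, *Dcn* and *Ptprc* gate and 233 of these were cycling FAPs. The control libraries held 0, 85 and 5 of them at 0, 5 and 14 days postinjury (dpi), and the hypothyroid libraries held 0, 142 and 1. The 2971 gated cells with UMIs of at most 1 of the 6 genes are called other FAPs here.

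The cells came from the tibialis anterior muscle (TAM) of male mice, uninjured or after cardiotoxin injury (50 µg/ml), on a control diet or made hypothyroid with an iodine-deficient diet with 0.15% propylthiouracil, an inhibitor of thyroid hormone synthesis. All mice, control mice included, carried, on a B6;129 background, the Fucci2aR allele of the Rosa26 locus (Gt(ROSA)26Sor<tm1(Fucci2aR)Jkn), a cell cycle reporter that needs Cre to be switched on, and started the diets at 3 to 5 months of age. Per the methods, the line came from a cross to *Pax7*-Cre mice, and the animals profiled for RNA lacked Cre. Each diet and day had 1 droplet library, made from 3 pooled mice, which gives 6 libraries. Cells that share a library do not replicate a condition, so the diets at 5 dpi were compared without a test, and the 95% intervals given here cover counting error only. The libraries held 2283740 to 23496509 UMIs, with medians of 3634 to 8055 UMIs per cell.

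FAPs are mesenchymal cells that lie between the muscle fibers. After injury they leave quiescence, divide, lay down matrix and release factors that act on muscle stem cells and on leukocytes, and their number falls again as fibers regrow. A dividing cell first raises the genes of DNA replication, among them the MCM helicase, and then those of mitosis, among them the spindle kinesins, the Aurora and Polo kinases and the cyclin B partners of *Cdk1*. *Mki67* encodes the proliferation marker Ki-67, *Top2a* the topoisomerase that untangles chromosomes, *Birc5* the survivin subunit of the chromosomal passenger complex, *Cenpf* a kinetochore protein and *Ccna2* cyclin A.

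The first question was when cycling FAPs were found. At 0 dpi none of 505 gated cells was cycling in the control library, which allows a share of up to 0.594%, and none of 176 in the hypothyroid library, which allows up to 1.70%. At 5 dpi 85 of 259 gated cells were cycling in control TAM (32.8%, exact binomial interval 27.1 to 38.9%) and 142 of 558 in hypothyroid TAM (25.4%, 21.9 to 29.3%). At 14 dpi the shares were 0.465% (5 of 1075) in control and 0.158% (1 of 631) in hypothyroid TAM. In both diets the cells were thus found almost only in the 5 dpi library, and the intervals of the 2 shares at 5 dpi overlapped.

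The 6 genes chose the cells, so their levels are given as a description. Over all gated cells, cycling or not, the *Mki67* level in the control libraries was 0.655, 87.3 and 1.59 CPM (UMIs of the gene scaled to a common total for each pool of cells) at 0, 5 and 14 dpi. In the hypothyroid libraries it was 0, 36.4 and 0.308 CPM. *Top2a* ran 0.327, 151 and 4.34 CPM in control and 3.15, 57.6 and 1.54 CPM in hypothyroid libraries. Over the gated cells of a library, the 2 genes had at most 3 UMIs each at 0 dpi and at most 30 at 14 dpi, against 336 to 626 at 5 dpi. A list of 34 mitosis genes that holds none of the 6 followed the same course, with summed levels over gated cells of 73.0, 1716 and 104 CPM in control and 98.8, 1055 and 122 CPM in hypothyroid libraries. The summed level of 32 DNA replication genes was 363, 1107 and 293 CPM in control and 412, 732 and 316 CPM in hypothyroid libraries. The *Dcn* level over gated cells went the other way, at 19162, 3213 and 9593 CPM in control and 20150, 2977 and 7587 CPM in hypothyroid libraries.

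**Figure D1:**
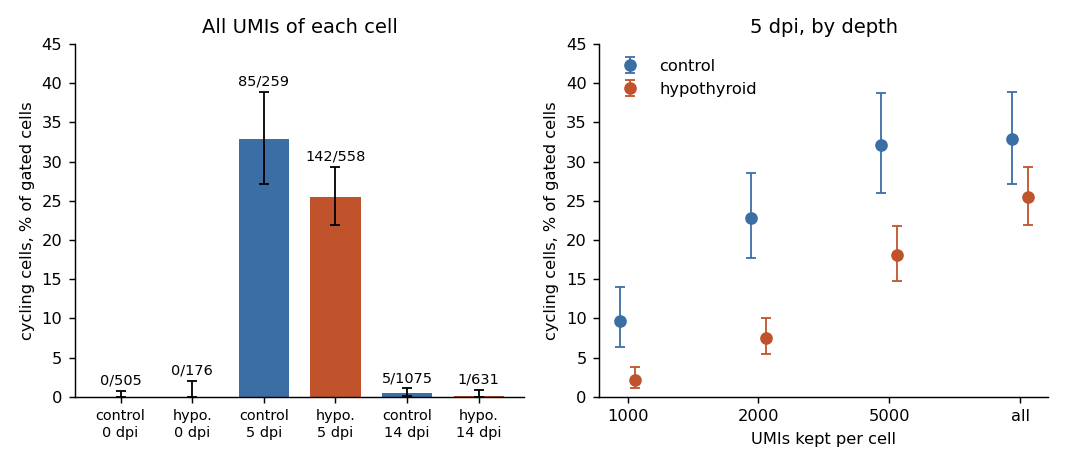
Left: the share of gated cells (*Pdgfra*+ *Dcn*+ *Ptprc*-) that were cycling, in percent, for each of the 6 libraries, with exact 95% binomial intervals as error bars and cell counts above the bars. Right: the 5 dpi shares after each gated cell was thinned to 1000, 2000 or 5000 UMIs and with all UMIs. Only the 5 dpi bars reach above 1%, and the control points lie above the hypothyroid points at each depth.

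The rule asks for UMIs of several genes and is met more easily by a cell with more UMIs. Cycling FAPs had medians of 21020 UMIs in control and 21391 in hypothyroid TAM at 5 dpi, against 12324 and 13966.5 in other FAPs. The gated cells as a whole had close medians in the 2 libraries, 15294 and 15242 UMIs. When each gated cell was thinned to 5000 UMIs, 71 of 221 cells (32.1%, 26.0 to 38.7%) met the rule in control and 88 of 488 (18.0%, 14.7 to 21.7%) in hypothyroid TAM. At 2000 UMIs the shares were 22.8% (57 of 250) and 7.49% (40 of 534), and at 1000 UMIs 9.69% (25 of 258) and 2.19% (12 of 547). The intervals of the 2 libraries did not overlap at any of the 3 depths, as the plot of shares by library and depth shows, whereas they overlapped at full depth. The numbers of cells left out as too shallow at 5000 UMIs were 38 and 70.

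At full depth, shares of all captured cells ran in the other direction. Gated cells made up 10.7% of the control and 25.9% of the hypothyroid library at 5 dpi. Cycling FAPs were therefore 3.50% of control cells (2.81 to 4.31%) and 6.59% of hypothyroid cells (5.58 to 7.72%). Among all cells of any type with UMIs of at least 2 of the 6 genes, cycling FAPs were 85 of 307 (27.7%, 22.8 to 33.1%) in control and 142 of 339 (41.9%, 36.6 to 47.3%) in hypothyroid TAM. *Ptprc*+ cells made up 50.2% and 27.4% of those dividing cells, and myogenic cells (2 or more muscle stem cell markers, no *Pdgfra* or *Ptprc*) 8.79% and 17.7%. The shares in this paragraph used every UMI, and the control and hypothyroid libraries had medians of 3846 and 8055 UMIs per cell. With each cell thinned to 2000 UMIs before the whole rule, 19 control and 17 hypothyroid cells met it, and 7 and 2 at 1000 UMIs. Shallower cells were left out there. The direction in all captured cells thus did not hold at these depths, and the part of depth was not tested.

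Other cell types give a scale for the share of FAPs that were dividing. By the same 6 genes, 29.3% of 92 myogenic cells in control and 34.5% of 174 in hypothyroid TAM were dividing, against 7.58% of 132 and 5.26% of 38 endothelial cells and 10.1% of 1522 and 10.8% of 865 *Ptprc*+ cells. With each cell thinned to 2000 UMIs, the myogenic shares were 15.9% and 16.2% and the *Ptprc*+ shares 8.64% and 6.36%. At that depth the intervals for FAPs did not overlap between the libraries (22.8% and 7.49%), whereas each myogenic share lay within the interval of the other.

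The number of the 6 genes with a UMI separated the 2 libraries as well. In control TAM 70 of 85 cycling FAPs (82.4%, 72.6 to 89.8%) had UMIs of at least 4 of the 6, against 77 of 142 (54.2%, 45.7 to 62.6%) in hypothyroid TAM. The medians were 5 and 4 genes. Just outside the rule lay 33 control and 93 hypothyroid cells with 1 gene, and just inside it 8 and 36 cells with 2 genes. Cells just outside had mitosis list levels of 333 CPM in control and 392 in hypothyroid TAM, against 185 and 246 CPM in cells with none of the genes. At 4, 5 and 6 genes the 2 libraries had mitosis list levels of 2263 and 2223, 2989 and 3048, and 4995 and 4572 CPM. At 2 genes they had 1244 and 820 CPM, and the replication list differed at 2 genes (1408 and 806 CPM) and at 5 genes (2593 and 1428 CPM).

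**Figure D2:**
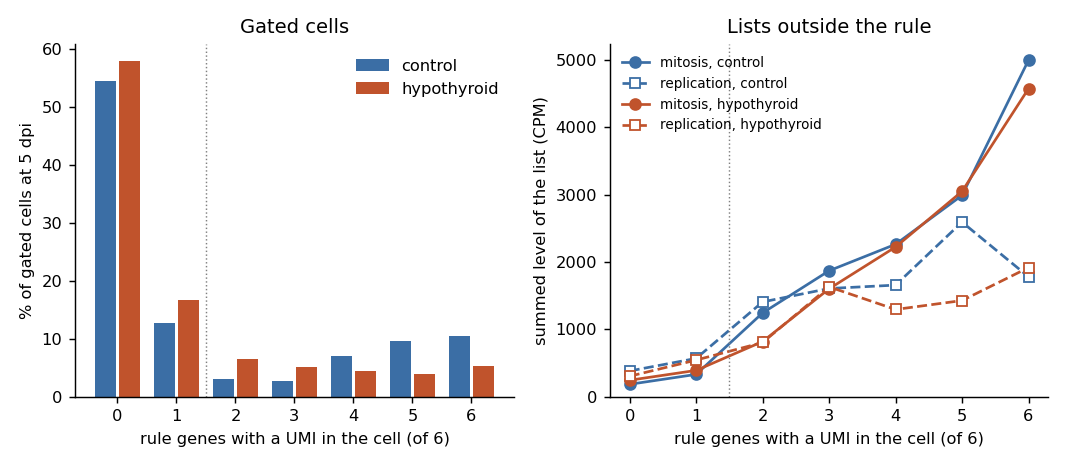
Left: the percent of gated cells at 5 dpi with UMIs of 0 to 6 of the 6 cell division genes, for control and hypothyroid TAM. Right: the summed level, in CPM, of the mitosis list and of the DNA replication list in the same cells by number of genes. The mitosis list goes from 185 CPM (control) and 246 CPM (hypothyroid) in cells with 0 genes to 4995 and 4572 CPM in cells with all 6.

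The second question was what cycling FAPs expressed that other FAPs of the same library did not. The 2 pools share mice, capture and sequencing, but the rule used cell division genes, so the following is a description. A gene was called when it differed more than 2-fold in the same direction in both 5 dpi libraries, among 5726 genes with at least 50 UMIs in at least 10 cells of the higher pool. The median ratio of cycling to other FAPs over these genes was 0.978 in control and 1.01 in hypothyroid TAM. In all, 190 genes (3.32%) were higher and 38 (0.664%) lower in cycling FAPs. A low gene could pass the minimum only through the pool where it was higher, so the counts over lists describe the genes that passed and do not add support.

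Mitosis genes stood highest. Of the 34 on the list 32 passed the minimum and all 32 were higher, with median ratios of 37.7 in control and 23.9 in hypothyroid TAM. *Ube2c*, the ubiquitin-conjugating enzyme of the anaphase-promoting complex, was at 371 CPM in cycling and 2.59 in other control FAPs and at 229 and 6.86 CPM in hypothyroid TAM. *Cdc20*, the activator of that complex, was at 182 and 6.48 CPM in control FAPs and 62.9 and 2.29 CPM in hypothyroid FAPs. *Ccnb1*, cyclin B1, was at 103 and 2.16 CPM and at 52.0 and 0.980 CPM. *Cks2*, a small subunit of the cyclin-dependent kinases, had the highest level of the list in hypothyroid cycling FAPs and one of the lowest ratios, 5.70 in control and 3.62 in hypothyroid TAM, since other FAPs also held 52.3 and 128 CPM.

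DNA replication genes were higher by less. Of 32, 27 passed and 25 were higher, with median ratios of 6.31 and 5.11. *Tk1*, thymidine kinase, was at 79.0 and 3.03 CPM in cycling and other control FAPs (26.1-fold) and at 66.2 and 3.27 CPM in hypothyroid FAPs (20.3-fold). *Rrm2*, a ribonucleotide reductase subunit, had ratios of 11.8 and 6.08, and *Tyms*, thymidylate synthase, 9.77 and 5.71. *Pcna*, the sliding clamp of DNA polymerases, had ratios of 2.87 and 2.80 because other FAPs held 81.7 and 71.8 CPM of it. The other 2 genes that passed, *Cdt1* and *Slbp*, missed the 2-fold call in at least 1 library, with ratios of 2.95 and 1.95 and of 1.41 and 1.80.

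Chromatin and tubulin genes had the highest summed level of the 3 lists of dividing cells. Of 19 genes, 16 were higher, and the summed level was 10120 CPM in cycling and 3264 CPM in other control FAPs and 8786 and 3139 CPM in hypothyroid FAPs. *Stmn1*, the microtubule-destabilizing protein stathmin, had ratios of 8.37 and 12.6. *Hmgb2*, a chromatin architectural protein, had ratios of 7.27 and 7.30, and *H2az1*, a histone H2A variant, 3.76 and 3.16. *Tubb5* and *Tuba1b*, the beta and alpha subunits of tubulin, had ratios of 3.40 and 3.65 and of 4.40 and 4.27, so that both diets gave close ratios for these genes.

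Outside the lists, 8 genes ranked highest by the interval end nearest 1 in the library where it was smaller. *H1f5*, a linker histone gene (mm39 chromosome 13, 21964053 to 21964796), was at 88.3 CPM in cycling and 0.865 CPM in other control FAPs (102-fold, exact binomial interval 27.8 to 851) and 44.9-fold higher in hypothyroid FAPs (21.3 to 113). Histone genes are near copies of each other, so reads may have been split between them. *Pclaf*, which encodes a factor that binds PCNA (chromosome 9, 65797519 to 65810549), had the highest level of the 8, at 347 and 9.94 CPM in control and 282 and 17.3 CPM in hypothyroid FAPs. The chromokinesin *Kif22*, the kinesin *Kif20b* and the kinase *Melk* had ratios of 76.1 and 61.3, 52.7 and 34.4, and 50.8 and 73.2. *Shcbp1*, of the midbody, and *Esco2*, which acetylates cohesin, had ratios of 77.4 and 38.0 and of 73.6 and 55.4. *Pimreg*, a mitotic regulator, had 75 UMIs in cycling and 0 in other control FAPs, and 61 and 2 UMIs in hypothyroid FAPs. All 8 act on chromosomes, the spindle or replication.

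Promoters of mitosis genes are known for CCAAT boxes and the CHR element (TTTGAA), and those of DNA replication genes for E2F sites (such as TTTCCCGC and TTTGGCGC). To show what the genes that were higher together share in sequence, promoter windows of 250 bases before to 50 after the start were taken from RefSeq, in build GRCm38.p6. That is not the build of the expression files, and genes were matched by symbol only. Windows were found for 4582 of the 5726 genes compared, 30 of the 34 mitosis genes and 26 of the 32 DNA replication genes. CCAAT, on either strand, was in 22 of 30 mitosis windows (73.3%) and 15 of 26 replication windows (57.7%), against 37.8% of the windows of all genes compared and 37.9% of all 27025 windows. TTTGAA was in 22 mitosis windows (73.3%) and 3 replication windows (11.5%), against 11.2% and 18.1%. TTTCCCGC or TTTGGCGC was in 0 mitosis and 10 replication windows (38.5%), against 3.43% and 1.63%. TATAAA, searched as a contrast, was in 1 mitosis window (3.33%) and 2 replication windows (7.69%), against 7.68% and 14.2%. A match is a run of letters and not a bound site. Of the genes higher in cycling FAPs in both libraries, 159 had a window and 107 of these (67.3%) held CCAAT, against 3 of the 26 windows (11.5%) of genes that were lower.

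The windows of 6 genes, chosen after the values were seen, are printed because they show these arrangements. Each is given 5′ to 3′ on the strand of the gene, with capitals where the CCAAT word, the CHR word TTTGAA or one of the E2F words given above stands on either strand, so that a match on the opposite strand is seen as its reverse complement. *Cdk1* (chr10:69352863-69353162, minus strand) held 3 CCAAT and 2 TTTGAA, *Top2a* (chr11:99024140-99024439, minus) 6 and 2, *Ube2c* (chr2:164769679-164769978, plus) 6 and 1 and *Cdc20* (chr4:118437294-118437593, minus) 2 and 1. In *Ube2c* a pair of the CCAAT matches, 1 on each strand, overlap in CCAATTGG. *Mcm3* (chr1:20820263-20820562, minus), of the replicative helicase, held 3 CCAAT and both E2F words, and *Hells* (chr19:38930740-38931039, plus), a chromatin remodeler of replicating cells, 1 E2F word and no CCAAT.
Cdk1: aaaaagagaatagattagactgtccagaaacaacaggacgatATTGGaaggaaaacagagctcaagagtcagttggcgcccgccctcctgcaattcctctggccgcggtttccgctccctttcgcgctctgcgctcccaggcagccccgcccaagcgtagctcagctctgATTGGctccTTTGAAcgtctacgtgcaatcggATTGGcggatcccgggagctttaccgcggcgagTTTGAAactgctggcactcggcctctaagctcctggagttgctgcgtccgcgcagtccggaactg
Top2a: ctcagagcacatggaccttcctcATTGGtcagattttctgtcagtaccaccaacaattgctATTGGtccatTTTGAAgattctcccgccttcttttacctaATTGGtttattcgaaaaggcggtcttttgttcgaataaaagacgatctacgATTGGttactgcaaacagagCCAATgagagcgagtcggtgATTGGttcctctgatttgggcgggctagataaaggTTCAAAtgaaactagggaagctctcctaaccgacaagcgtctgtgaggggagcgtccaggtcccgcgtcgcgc
Ube2c: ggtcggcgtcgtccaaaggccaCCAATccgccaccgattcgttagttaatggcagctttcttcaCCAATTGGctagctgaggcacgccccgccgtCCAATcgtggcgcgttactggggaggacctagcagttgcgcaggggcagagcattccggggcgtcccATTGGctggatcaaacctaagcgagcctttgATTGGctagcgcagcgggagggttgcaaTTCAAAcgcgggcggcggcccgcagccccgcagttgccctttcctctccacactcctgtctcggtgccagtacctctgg
Cdc20: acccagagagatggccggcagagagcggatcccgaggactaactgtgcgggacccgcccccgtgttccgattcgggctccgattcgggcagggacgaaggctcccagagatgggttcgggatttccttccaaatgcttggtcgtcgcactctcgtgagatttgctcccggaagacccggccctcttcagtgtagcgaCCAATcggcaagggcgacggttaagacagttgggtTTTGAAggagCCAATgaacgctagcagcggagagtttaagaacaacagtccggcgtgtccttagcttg
Mcm3: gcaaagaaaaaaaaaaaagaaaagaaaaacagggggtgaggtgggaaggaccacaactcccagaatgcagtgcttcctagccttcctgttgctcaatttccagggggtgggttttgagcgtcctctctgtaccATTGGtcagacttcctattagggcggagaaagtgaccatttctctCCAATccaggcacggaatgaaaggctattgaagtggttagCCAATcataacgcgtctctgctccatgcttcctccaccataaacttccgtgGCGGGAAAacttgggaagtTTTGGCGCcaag
Hells: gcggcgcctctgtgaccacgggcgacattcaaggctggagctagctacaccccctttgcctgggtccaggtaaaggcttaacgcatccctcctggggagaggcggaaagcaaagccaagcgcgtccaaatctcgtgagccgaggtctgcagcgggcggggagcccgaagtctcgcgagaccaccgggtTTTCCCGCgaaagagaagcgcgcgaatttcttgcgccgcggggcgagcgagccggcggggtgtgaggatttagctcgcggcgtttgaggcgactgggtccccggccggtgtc

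Counted from the start, a TTTGAA match began at base -15 in the *Cdk1*, -23 in the *Top2a*, -29 in the *Ube2c* and -18 in the *Cdc20* window. *Cdk1* and *Top2a* helped to choose the cells and were at 221 and 340 CPM in control and 122 and 167 CPM in hypothyroid cycling FAPs. *Mcm3* was at 70.8 and 20.3 CPM in cycling and other control FAPs and at 34.2 and 6.69 CPM in hypothyroid FAPs. *Hells* was at 75.7 and 9.51 CPM and at 49.1 and 12.4 CPM.

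Cell cycle entry genes differed less than those of replication and mitosis. Of the 15 D cyclin, kinase and inhibitor genes that passed, 3 were higher. These were *Cdk2*, the partner of cyclins E and A (ratios of 2.04 and 2.71), and the inhibitors of the D cyclin kinases *Cdkn2c* (5.08 and 3.55) and *Cdkn2d* (5.66 and 5.57). *Cdk4*, a kinase partner of the D cyclins, was 1.57-fold higher in control and 1.59-fold in hypothyroid cycling FAPs, and *Ccnd1*, cyclin D1, had ratios of 1.15 (0.885 to 1.50) and 1.22 (1.02 to 1.47). Of 12 nucleotide synthesis genes 1 was higher, *Dut*, the dUTPase (4.56 and 3.51). No gene of 15 for the nucleolus or of 13 for glycolysis was called, with median ratios of 1.22 and 0.965 and of 1.41 and 1.15. With 3.32% of all genes compared called higher and 0.664% lower, no call in lists of this size is near the overall share.

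**Figure D3:**
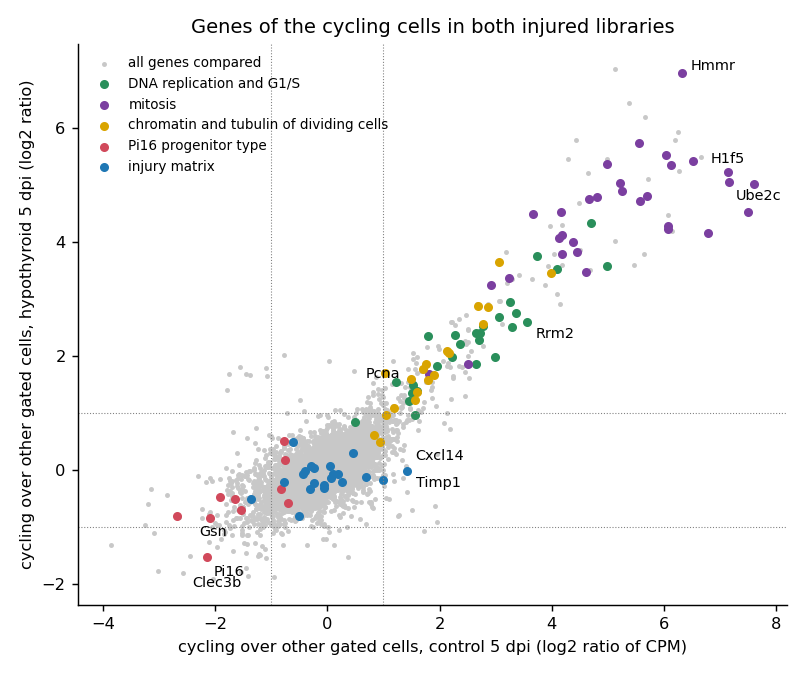
Each point is a gene at 5 dpi, with the log2 ratio of its level in cycling to other FAPs in control TAM (x axis) and hypothyroid TAM (y axis), and the gene lists in color. Mitosis genes lie farthest to the upper right, with median ratios of 37.7 and 23.9, DNA replication genes lie between them and the bulk of genes (6.31 and 5.11), and *Pi16* and *Clec3b* lie to the lower left.

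Cycling FAPs carried the mesenchymal genes of FAPs. Of 14 identity genes that passed, 1 was called lower, *Gsn*, the actin-severing protein gelsolin, with ratios of 0.348 and 0.482. *Pdgfra*, which the rule required, was at 217 and 248 CPM in cycling and other control FAPs and at 172 and 200 CPM in hypothyroid FAPs. *Col1a1*, the main chain of type I collagen, was at 14011 and 17178 CPM in cycling and other control FAPs and at 8551 and 9987 CPM in the hypothyroid ones, and *Col3a1* had ratios of 0.744 and 0.777. None of the 21 injury matrix genes was called in either direction. Over all genes compared 3.32% were higher and 0.664% lower, so no call in a list of this size is near that share. *Cthrc1* and *Postn*, matrix genes of activated FAPs, had ratios of 0.819 and 1.05 and of 0.810 and 0.791.

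Of 10 genes of the *Pi16*+ FAPs, a population known from the connective tissue around vessels and muscle bundles, *Pi16* was called lower. *Pi16*, a peptidase inhibitor, was at 137 CPM in cycling and 610 CPM in other control FAPs (0.225, 0.196 to 0.257) and at 85.2 and 244 CPM in hypothyroid FAPs (0.349, 0.305 to 0.399). The 10 genes had a median ratio of 0.331 in control and 0.687 in hypothyroid TAM. *Cd248* and *Anxa3* had ratios below 1 in control (0.583 and 0.588) and above 1 in hypothyroid TAM (1.42, 1.21 to 1.66, and 1.13, 1.01 to 1.26). The 5 genes outside the lists with the lowest ratios were *Clec3b* (0.168 and 0.286), which encodes the secreted protein tetranectin, *Myoc* (0.243 and 0.265), which encodes myocilin, *Thbd* (0.343 and 0.291), the thrombin receptor thrombomodulin, *Slfn5* (0.182 and 0.352) and *Lbp* (0.365 and 0.305), which encodes a protein that binds lipopolysaccharide. *Clec3b*, on mm39 chromosome 9 from 122980011 to 122986498, was at 86.7 and 517 CPM in cycling and other control FAPs and at 103 and 361 CPM in hypothyroid FAPs.

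The level of *Pi16* was highest in cells with none of the cell division genes. In control TAM its level was 748 CPM in cells with none of the 6 genes, 203 with 1 gene, 103 with 2 or 3, 195 with 4 or 5 and 84.2 with all 6. In hypothyroid TAM the levels were 292, 121, 92.5, 81.9 and 78.5 CPM. *Clec3b* ran 606, 252, 92.0, 132 and 38.4 CPM in control and 415, 221, 113, 96.2 and 98.2 CPM in hypothyroid TAM. Most of the difference in either library thus lay between cells with 0 and with 2 or 3 of the genes, and the largest step was from 0 to 1 gene, outside the rule. In control TAM both *Pi16* and *Clec3b* were higher with 4 or 5 genes than with 2 or 3, so the fall was not even.

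Counted as cells at 5000 UMIs each, 20.5% of 78 cycling and 44.1% of 143 other control FAPs had a *Pi16* UMI, and 20.4% of 137 and 30.8% of 351 in hypothyroid TAM. In *Ptprc*+ cells, which should lack the gene, the shares at that depth were 4.44% and 3.27%, so part of these shares can be free RNA. The cells left out as too shallow were 7 cycling and 31 other FAPs in control and 5 and 65 in hypothyroid TAM. *Smoc2*, which marks FAPs between the fibers, was found in 69.2% of cycling and 50.4% of other control FAPs and in 61.3% and 65.5% in hypothyroid TAM (6.05% and 7.96% of *Ptprc*+ cells). *Tnc*, the injury matrix protein tenascin C, was found in 92.3% and 58.7% in control and 84.7% and 75.2% in hypothyroid TAM (11.3% and 17.3% of *Ptprc*+ cells). Cells with UMIs of all of *Cthrc1*, *Tnc* and *Lrrc15* were 21.8% of cycling and 16.1% of other control FAPs and 23.4% and 18.5% in hypothyroid TAM. Cycling FAPs thus included cells of each of these marker patterns, and *Pi16* was the one found in a smaller share of them in both libraries.

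For several genes the ratio of cycling to other FAPs was larger in the control than in the hypothyroid library. *Timp1*, a tissue inhibitor of metalloproteinases, had a ratio of 2.67 (2.55 to 2.79) in control and 0.990 (0.957 to 1.02) in hypothyroid TAM, and *Tnc* had 1.98 and 0.886. Without the cells that held 2 markers of any other cell type, fiber markers included, *Timp1* had 1.29 and 0.802. When the fiber list was not counted, it had 2.76 and 0.923. *Cxcl14*, a chemokine, had 2.65 and 1.05, and neither interval included 1. *Spp1*, the secreted phosphoprotein osteopontin, was higher in cycling FAPs of both libraries, with 4.53 and 1.66, but had 0.422 and 0.652 without the cells that held 2 markers of any other cell type, fiber markers included. In control TAM 3 cells held 61.6% of the *Spp1* UMIs of cycling FAPs and 3 cells held 65.6% of those of other FAPs. *Cdkn1a*, the p21 inhibitor of cyclin-dependent kinases, went the other way, at 111 and 219 CPM in cycling and other control FAPs (0.507, 0.428 to 0.597) and at 233 and 159 CPM in hypothyroid FAPs (1.47, 1.33 to 1.62). *Cdkn1c*, the p57 inhibitor, was lower in cycling FAPs of both libraries, with ratios of 0.294 and 0.514. These differences between the libraries were not tested.

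The third question was which phase the cells were in. The rule genes are used mostly from S phase to mitosis. The lists compared here leave them out, but the cells were still chosen by them. The balance of the lists is therefore not independent of the rule and is a description. In control TAM the replication and mitosis lists were at 1408 and 1244 CPM in cells with 2 of the 6 genes. In cells with all 6 they were at 1781 and 4995 CPM. In hypothyroid TAM the levels were 806 and 820 CPM with 2 genes and 1917 and 4572 CPM with all 6. In control cycling FAPs the summed level was 3611 CPM for the mitosis list and 1965 CPM for the replication list, a ratio of 1.84. In hypothyroid cycling FAPs the levels were 2574 and 1444 CPM, a ratio of 1.78. Other FAPs had ratios of 0.517 and 0.770. Per cell, the mitosis list exceeded the replication list in 56 of 85 control cells (65.9%, 54.8 to 75.8%) and 94 of 142 hypothyroid cells (66.2%, 57.8 to 73.9%). The per-cell medians were 2907 and 1867 CPM for mitosis and 1504 and 990 CPM for replication in control and hypothyroid cells, so that both lists were lower in hypothyroid cells while their balance was close. With each cell thinned to 1000 UMIs the shares were 58.8% and 53.5%, with 11 and 31 ties.

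**Figure D4:**
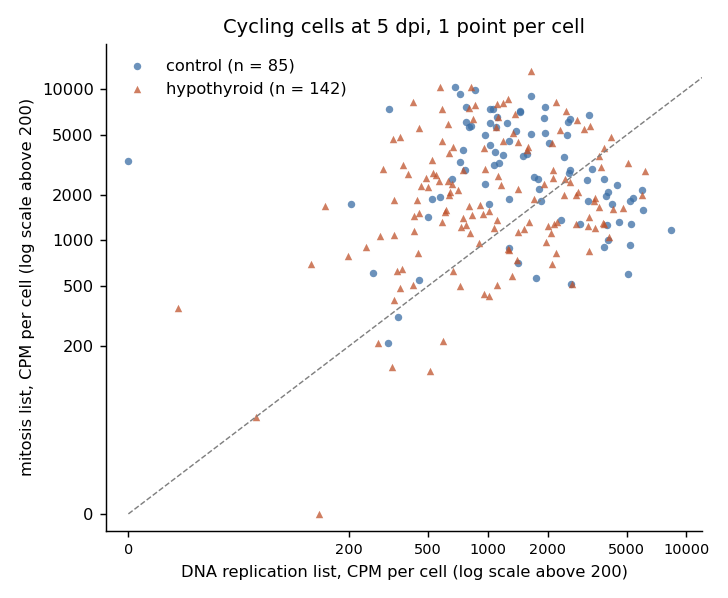
Each point is 1 cycling FAP at 5 dpi, with its summed level of the DNA replication list (x axis) and of the mitosis list (y axis) in CPM, on axes that are logarithmic above 200 CPM. The dashed line marks equal levels. The mitosis list is the higher in 56 of 85 control and 94 of 142 hypothyroid cells, and the highest mitosis levels are 10377 and 13151 CPM.

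The fourth question was how cycling FAPs of hypothyroid TAM differed from those of control TAM at 5 dpi, which the rule did not use. Among 5743 genes that passed the minimum, 204 (3.55%) were more than 2-fold higher and 405 (7.05%) more than 2-fold lower in hypothyroid cycling FAPs. The median ratio of hypothyroid to control was 0.898, against 0.854 in other FAPs and 0.813 in *Ptprc*+ cells, so ratios are read against values a little below 1. Each comparison rests on 1 library per diet, and a difference of diet cannot be told apart from a difference of libraries.

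Division genes were lower in hypothyroid cycling FAPs. Of 34 mitosis genes 9 were called lower and none higher, with a median ratio of 0.586, and of 28 DNA replication genes 4 were lower and none higher, with a median of 0.666. The summed lists had ratios of 0.713 (0.690 to 0.737) and 0.735 (0.703 to 0.768). *Plk1*, the Polo-like kinase, was at 22.6 CPM in hypothyroid and 79.0 CPM in control cells (0.286, 0.212 to 0.383), with UMIs in 40 of 142 and 47 of 85 cells. The other mitosis genes called lower were *Kif2c* (0.252), *Bub1b* (0.314), *Cdc20* (0.347), *Aurka* (0.365), *Kif20a* (0.367), *Racgap1* (0.421), *Aurkb* (0.439) and *Kif23* (0.469), which act in chromosome alignment, the spindle checkpoint and cytokinesis. The 4 replication genes were *Uhrf1* (0.373), *Ccne1* (0.392), *Mcm2* (0.429) and *Mcm3* (0.484). Not all division genes were lower: *Cks2* had a ratio of 1.56, *Cenpa* 1.07, *Clspn* 1.06 and *Tyms* 0.978. Beside this stand the number of rule genes per cell, which was lower in hypothyroid TAM, and the ratios of the same lists in other cells. The medians for mitosis and replication were 0.501 and 0.483 in *Ptprc*+ cells and 0.903 and 0.897 in other FAPs, where the summed mitosis list had a ratio of 1.29 (1.17 to 1.42). Their part in the result was not tested.

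Tubulin genes were lower as well. *Tuba1c* (0.303), *Tuba1b* (0.360) and *Tubb5* (0.460) were called, and they had close ratios in other FAPs (0.350, 0.371 and 0.429). Tubulin genes are near copies of each other. *Hmgn2*, a nucleosome-binding protein, was the 1 of 19 chromatin and tubulin genes called higher, at 492 against 173 CPM (2.85), with a ratio of 2.63 in other FAPs. Of 13 nucleotide synthesis genes, 4 were lower, *Mthfd1* (0.305), *Gart* (0.339), *Ctps* (0.417) and *Cad* (0.429). None of the 15 nucleolus and 13 glycolysis genes compared was called, against 3.55% higher and 7.05% lower over all genes compared.

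The cell cycle inhibitors *Cdkn1a* and *Cdkn1c* were the 2 of 16 cyclin, kinase and inhibitor genes that were called, both higher. *Cdkn1a* was at 233 CPM in hypothyroid and 111 CPM in control cycling FAPs (2.10, 1.80 to 2.47), with UMIs in 75 of 142 and 35 of 85 cells. Its ratio in other FAPs was 0.725, so the direction was opposite in cells outside the rule. *Cdkn1c* was at 98.8 and 17.6 CPM (5.63, 3.90 to 8.38) and 3.22-fold higher in other FAPs. A single hypothyroid cell held 64.1% of its UMIs, and without the top cell of each library the ratio was 2.84 (1.80 to 4.66).

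Cytokine genes differed in both directions. Of 16, 5 were higher and 4 lower in hypothyroid cycling FAPs, and the median ratio of the list was 0.751, against 0.898 over all genes compared. All 5 genes of the list that were higher encode chemokines, which draw leukocytes, and the chemokine genes *Cxcl5* and *Cxcl12* were below 1, at 0.590 and 0.740. *Ccl2*, a monocyte attractant, was at 12009 CPM in hypothyroid and 2247 CPM in control cells (5.35, 5.18 to 5.52), with UMIs in 126 of 142 and 66 of 85 cells. The neutrophil attractants *Cxcl2* and *Cxcl1* had ratios of 3.31 and 3.05, and *Ccl7* and *Ccl8* 2.53 and 2.04. The same 5 genes had ratios of 3.19, 2.16, 2.22, 2.38 and 1.51 in other FAPs and 6.03, 3.11, 5.62, 4.92 and 12.4 in *Ptprc*+ cells, so the direction was shared by all 3 pools. Within each library *Ccl2* was lower in cycling than in other FAPs, with ratios of 0.464 in control and 0.777 in hypothyroid TAM. Outside the list, the cytokine gene *Csf2*, not a chemokine, was also higher in hypothyroid cycling FAPs, at 727 against 107.5 CPM. It had UMIs in 40 of 142 and 12 of 85 cells, and was at 775 and 310 CPM in other FAPs.

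The 4 cytokine genes that were lower were *Saa3*, *Spp1*, *Ccl11* and *Ptx3*. *Saa3*, an acute-phase serum amyloid A gene, had 740 UMIs in 17 of 85 control cells and none in 142 hypothyroid cells, which allows up to 0.968 CPM against 406 CPM. The control UMIs were uneven, with 29.6% in 1 cell. *Spp1* was at 988 and 2820 CPM (0.351, 0.335 to 0.367), the eosinophil attractant *Ccl11* had a ratio of 0.447 and *Ptx3*, the acute-phase pentraxin, 0.471. For *Spp1*, 3 control cells held 61.6% of the UMIs, and 1 hypothyroid cell held 37.9%. It was found in 56.5% of control and 62.0% of hypothyroid cells, so the share of cells with the gene was not smaller. In other FAPs *Spp1* and *Ccl11* had ratios of 0.959 and 0.972, and *Saa3* 0.0593. *Saa3* was also lower in *Ptprc*+ cells of the hypothyroid library, at 3.39 against 107 CPM (0.0317), so its direction was shared by all 3 pools.

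Some of the genes with the lowest ratios were found in a minority of control cycling FAPs and in fewer hypothyroid ones. *Dio3*, the deiodinase that inactivates thyroid hormone, had levels of 4.52 CPM in hypothyroid against 91.6 CPM in control cycling FAPs (0.0493, 0.0264 to 0.0851), with UMIs in 18 of 85 and 7 of 142 cells. In control TAM it was 5.89-fold higher in cycling than in other FAPs (4.09 to 8.69), whereas in hypothyroid TAM the ratio was 0.729 (0.365 to 1.38). The control ratio was 0.151 without the cells that held 2 markers of any other cell type, which left 17 control cycling FAPs, and 5.77 when the fiber list was not counted, which left 70. Among control cycling FAPs, 3 cells held 53.9% of the *Dio3* UMIs. At 5000 UMIs per cell *Dio3* was found in 11.5% of 78 cycling and 6.29% of 143 other control FAPs, and the intervals overlapped (5.41 to 20.8% and 2.92 to 11.6%). In hypothyroid TAM it was found in 0 of 137 and 6 of 351 cells. *Arg1*, arginase 1, had a ratio of 0.0902 between the diets (15 of 85 and 8 of 142 cells), *Il13ra2*, a receptor that traps interleukin 13, 0.0516 (16 and 5 cells) and *Il4ra*, the interleukin 4 receptor chain known to carry a proliferation signal in FAPs, 0.125. *Il4ra* was found in most control cycling FAPs, 54 of 85, and in 52 of 142 hypothyroid ones. At 5000 UMIs per cell *Il4ra* was found in 43.6% of cycling and 25.9% of other control FAPs and in 14.6% and 17.1% in hypothyroid TAM. *Ptprc*+ cells, which express *Il4ra* themselves, had it in 154 of 496 and 147 of 490 cells at that depth. *Arg1* was found in 14.1% of cycling and 0.699% of other control FAPs and in 2.92% and 0.570% in hypothyroid TAM, against 0.806% and 2.65% of *Ptprc*+ cells.

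These genes overlapped in part within control cycling FAPs. Of the 85 cells, 36 had a UMI of *Dio3*, *Saa3*, *Arg1* or *Il13ra2* and 19 had UMIs of 2 or more of the 4. *Saa3* and *Il13ra2* shared 11 cells, 64.7% of the *Saa3* and 68.8% of the *Il13ra2* cells. *Dio3* shared 8 cells with each of the other 3 genes, 44.4% of its 18 cells. The 36 cells had a median of 26264 UMIs, against 18340 in the others, and 3 of them held UMIs of 2 or more macrophage markers. Depth thus moved with these genes, and its part in the overlap was not tested.

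Of the 18 thyroid hormone genes 9 passed and 2, *Dio3* and *Dio2*, were called, both lower. *Dio2*, which activates thyroid hormone, was at 9.04 and 37.8 CPM (0.239, 0.148 to 0.376). *Klf9*, a transcription factor known as a direct target of thyroid hormone, was at 182 and 347 CPM (0.525, 0.468 to 0.589), against a ratio of 0.388 in other FAPs. *Thra*, the main thyroid hormone receptor of muscle, was at 41.6 and 46.1 CPM, with a ratio of 0.904 (0.681 to 1.20). *Dio3* was also lower in *Ptprc*+ cells of the hypothyroid library, at 0.407 against 9.21 CPM.

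The other gated cells at 0 and 14 dpi place these levels within the series, each day and diet being again 1 library. *Timp1*, at 3488 and 1630 CPM in control and hypothyroid cycling FAPs at 5 dpi, was at 12.8 and 14.7 CPM in other FAPs at 0 dpi and at 240 and 463 CPM at 14 dpi. *Spp1*, at 2820 and 988 CPM in cycling FAPs, was at 7.20 and 46.2 CPM at 0 dpi and at 4.65 and 9.43 CPM at 14 dpi. Both genes were therefore higher in cycling FAPs than in the other FAPs of either uninjured or 14 dpi TAM, and of the 44 *Spp1* UMIs of the hypothyroid 0 dpi library 72.7% came from 1 cell. *Dio3* had levels of 1.31 and 2.10 CPM at 0 dpi and 2.04 and 1.70 CPM at 14 dpi, so the 4.52 CPM of hypothyroid cycling FAPs lay near them and the 91.6 CPM of control cycling FAPs far above. *Klf9* was highest at 0 dpi, at 1262 and 1435 CPM, and lowest in cycling FAPs at 5 dpi. *Cdkn1c* was at 225 and 381 CPM at 0 dpi and at 271 and 633 CPM at 14 dpi, above cycling FAPs of the same diet in each case. *Cdkn1a* was at 451 and 607 CPM at 0 dpi and 223 and 228 CPM at 14 dpi, against 111 and 233 CPM in cycling FAPs. *Ccl2* was at 8707 and 5490 CPM at 0 dpi and 8054 and 16517 CPM at 14 dpi, so that control cycling FAPs, at 2247 CPM, held the lowest level of the pools set side by side here.

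Of the 6 genes with the highest ratios, *H2ac24*, *Gstp1* and *Gm10076* had close ratios in *Ptprc*+ cells. *H2ac24*, a histone H2A gene, was 33.0-fold higher in hypothyroid cycling FAPs and 30.3-fold in *Ptprc*+ cells, and *Ube2s* (32.5), *Gstp1* (29.2) and *Gm10076* (16.5) were 13.5-, 31.9- and 14.3-fold higher in *Ptprc*+ cells. Among the lowest, *Wdr89* had a ratio of 0.0930 and 0.0617 in *Ptprc*+ cells. *H2ac24* and *Gstp1* have near copies elsewhere in the genome, so their counts are uncertain. *Tac1*, the precursor of substance P, had 284 and 2 UMIs, and 54.9% of the hypothyroid UMIs were in 1 cell. Its ratio was 83.6, against 53.6 in other FAPs and 11.02 in *Ptprc*+ cells. *Ifi202b*, an interferon-inducible gene, had 68 UMIs in 16 hypothyroid cells and 0 in control cells, and ratios of 3.98 in other FAPs and 4.66 in *Ptprc*+ cells.

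Of 20 injury matrix genes compared, 2 were higher and 1 was lower. Of 15 genes for signals to muscle stem cells, 1 was higher and 1 lower, and of 13 growth factor receptor genes 0 and 1. Over all genes compared 3.55% were higher and 7.05% lower, so these lists did not stand apart by their counts. *Mdk* and *Ptn*, the related heparin-binding factors midkine and pleiotrophin, were 2.16- and 2.11-fold higher, and *Timp1* was lower, at 1630 against 3488 CPM (0.467, 0.450 to 0.485) while its ratio in other FAPs was 1.26. Without the cells that held 2 markers of any other cell type, the *Timp1* ratio in cycling FAPs was 0.745, no longer past 2-fold. It was 0.454 when the fiber list was not counted. *Cxcl14* had a ratio of 0.231 (0.220 to 0.242) in cycling and 0.580 in other FAPs. The Wnt antagonist *Sfrp1* was lower (0.333) and *Ccn3* higher (2.29), with 0.410 and 0.492 in other FAPs. *Fmod*, a matrix proteoglycan on the tendon list, was 3.18-fold higher. None of the 16 FAP identity and 8 *Pi16* list genes compared was called between the diets.

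**Figure D5:**
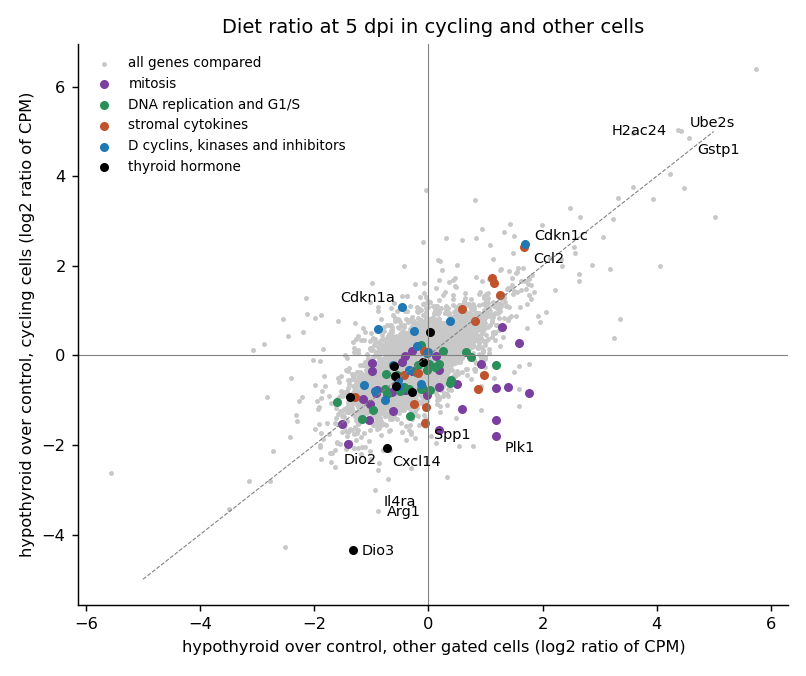
Each point is a gene at 5 dpi, with the log2 ratio of hypothyroid to control TAM in other FAPs (x axis) and in cycling FAPs (y axis), and the gene lists in color. *Ccl2* lies high on both axes (ratios of 3.19 and 5.35), whereas *Cdkn1a* (0.725 and 2.10) and *Timp1* (1.26 and 0.467) change side between other and cycling FAPs.

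Markers of other cell types were checked because a droplet with a FAP and another dividing cell would pass the rule. Macrophage markers were present at a low level. The macrophage list summed to 49.9 and 38.1 CPM in control and hypothyroid cycling FAPs, against 1720 and 11519 CPM in *Ptprc*+ cells, the T and NK cell list at 1.65 and 4.20 CPM (652 and 335 CPM in *Ptprc*+ cells) and the red cell list at 8.78 and 0.968 CPM. In other FAPs the macrophage list summed to 24.2 and 94.04 CPM. UMIs of 2 or more markers were found in 5 of 85 (5.88%) and 24 of 142 (16.9%) cells for macrophages, against 1.72% and 6.49% of other FAPs, 5 and 6 for myogenic cells, 3 and 4 for endothelial cells and 1 and 1 for mural cells, with *Myf5* and *Myod1* at 0 in control cycling FAPs. Conversely, 19 of 1522 and 24 of 865 *Ptprc*+ cells would have passed the rest of the rule, and *Pdgfra* and *Dcn* UMIs were found in 3.48% and 8.34% of *Ptprc*+ cells in control and 6.24% and 16.6% in hypothyroid TAM at medians of 3465.5 and 5851 UMIs.

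Muscle fiber genes were the exception. At least 2 of 6 fiber markers were found in 65 of 85 control cycling FAPs (76.5%) and 31 of 142 hypothyroid ones (21.8%), and in 69.0% and 25.0% of other FAPs. Their summed level was 249 and 363 CPM in cycling and 620 and 113 CPM in other FAPs, and 1333 and 233 CPM in *Ptprc*+ cells, which do not make them. In hypothyroid cycling FAPs 84.7% of these UMIs were in 1 cell of 34916 UMIs, and without it the level was 56.2 CPM, below other FAPs (ratio of 0.496, 0.417 to 0.587). Without every cell that held 2 markers of any other type, fiber markers included, 17 control and 87 hypothyroid cycling FAPs were left, and the ratios of hypothyroid to control were 1.21 for *Dio3*, 2.68 for *Spp1*, 1.12 for *Kif2c* and 0.977 for *Cdkn1c*, so that these 4 differences changed direction. Most control cells left out this way held fiber markers, and 15 of 85 control and 30 of 142 hypothyroid cells held 2 markers of any list but that one. Leaving out only the latter, an alternative chosen after the values were seen that left 70 and 112 cells, gave ratios of 0.0541 for *Dio3*, 0.641 for *Spp1*, 0.250 for *Kif2c* and 2.03 for *Cdkn1c*, so that *Spp1* was no longer past 2-fold.

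The 6 cycling FAPs at 14 dpi were few enough to give singly. The 5 control cells had UMIs of 2, 2, 6, 6 and 3 of the 6 genes, at 3208, 8630, 13297, 3854 and 8665 UMIs in all. The pair with all 6 genes held 79 and 44 mitosis list UMIs. The 1 hypothyroid cell had 2 of the genes, 41 mitosis list UMIs and 19564 UMIs. *Pi16* was found in 2 of the 5 control cells and in the hypothyroid cell.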

How the data were processed

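Single cells of TAM were profiled in 6 libraries, 1 per diet and day, as labelled. Per the labels and the methods, the authors aligned reads to mm39 with Cell Ranger in Partek Flow, counted UMIs, filtered cells and scaled each to CPM. The deposited values are log2(CPM + 1), for 12436 genes. UMI counts were recovered from the steps of each cell's values (99.9% of values whole within 0.05 UMI), which undoes the scaling, not the filters.

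The main values use only the first alphabetical run of barcodes of each file (11207 cells). The other 9062 columns, in 7 later runs, repeat or mix barcodes and have no condition of their own in the labels. No column belonged to an unlisted sample. First runs of different files shared 12 barcodes, none with the same values and none of them members. No doublet caller was run, and marker lists were counted instead.

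UMIs were summed over cells. Levels are CPM, ratios have exact binomial and shares exact Clopper-Pearson 95% intervals, and a count of 0 allows 3 counts. A gene was compared with at least 50 UMIs in at least 10 cells of the higher pool and called past 2-fold. The rule for naming genes took list members by role or size, the 8 highest and 5 lowest genes outside the lists between pools, and the 6 largest each way between diets. Cells, lists and tests were chosen with earlier results of these data known. Promoter windows came from RefSeq (GRCm38.p6), not the files' build, and were matched by symbol. Scripts were tested on simulated data and used python 3.11.15, numpy 2.4.6, scipy 1.17.1, pandas 2.3.3 and matplotlib 3.10.9. Alternatives tried were the number of rule genes, thinning, the UMI minimum, the weighting of cells, the columns used, mitochondrial and ribosomal genes, and leaving out cells with other markers.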

Additional observations from a re-analysis of the deposited data

Results flagged for a closer look

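Only genes of the lists that were past 2-fold in at least 1 of the 2 libraries were searched here. Among these, the ratio of cycling to other FAPs lay on opposite sides of 1 in the control and hypothyroid libraries, with intervals that excluded 1, for 1 set of genes. They were *Atf3*, a stress-induced transcription factor (0.491 and 1.30), and the muscle fiber genes *Acta1* (0.471 and 3.12), *Ckm* (0.337 and 3.49), *Mylpf* (0.366 and 3.22), *Tnnc2* (0.383 and 3.20) and *Tnnt3* (0.466 and 3.44). *Cdkn1a*, *Cd248* and *Anxa3*, given above, also had ratios on opposite sides of 1 but were not past 2-fold in either library. The difference between the libraries was not tested. Without the 1 hypothyroid cell that held 84.7% of the fiber UMIs, the hypothyroid ratios were 0.468 for *Acta1*, 0.588 for *Ckm*, 0.632 for *Mylpf*, 0.395 for *Tnnc2* and 0.419 for *Tnnt3*, on the same side of 1 as in the control library, and 1.31 for *Atf3*.

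Cycling FAPs were also present in columns after the first run of a file, which entered only the alternative that took all columns. In the third run of the hypothyroid 5 dpi file 52 of 187 gated cells (27.8%) met the rule, and in the second run of the hypothyroid 0 dpi file 13 of 50 (26.0%). Later runs repeat or mix barcodes and have no condition of their own in the labels. These cells therefore cannot be assigned to a diet or day, and do not show cycling FAPs in uninjured TAM. The first runs of uninjured libraries held none. In all, 15 columns of later runs carried the barcode of a cycling FAP of a first run.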

How the results depend on the processing

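No paired analysis was possible because each diet and day had 1 library, so groups share fewer than 2 replicate numbers. The share of cycling FAPs, 32.8% in control and 25.4% in hypothyroid TAM at 5 dpi, was 45.6% and 42.1% with 1 of the 6 genes asked for and 19.0% in hypothyroid TAM with 3. It was 12.1% and 1.90% when cells were thinned to 1000 UMIs before the whole rule, 18.3% and 8.37% at 2000, 8.27% and 20.8% with all columns, and 24.6% in control TAM without cells holding 2 markers of any other type. Results with all columns take in the later runs, whose cells have no condition in the labels and may not belong to the diet and day of the file. Of alternatives chosen after seeing the data, thinning gated cells gave 9.69% and 2.19% (1000 UMIs), 22.8% and 7.49% (2000) and, in hypothyroid TAM, 18.0% (5000). The 190 genes higher and 38 lower in cycling FAPs were 335 and 59 at a minimum of 20 UMIs and 44 and 21 at 200, where fewer genes were compared. They were 25 higher without cells holding other markers, 88 lower with equal weight per cell and 264 lower with all columns. The 204 genes higher and 405 lower in hypothyroid cycling FAPs were 366 and 765 at 20 UMIs, 107 and 93 at 200, 325 and 72 without cells holding other markers, and 114 lower with all columns. The share of hypothyroid cells with mitosis above replication was 53.5% when thinned. Without cells holding other markers, which leaves 17 control cells, the cycling to other ratio in control TAM was 0.422 for *Spp1* and 0.151 for *Dio3*, and the hypothyroid to control ratio was 1.21 for *Dio3*, 2.68 for *Spp1*, 0.977 for *Cdkn1c* and 1.12 for *Kif2c*. With all columns the median fiber gene ratio in hypothyroid TAM was 0.215. The causes were not tested. With 17 to 142 cells per pool, a gene under 50 UMIs could not be compared.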
